A study of Mus musculus with 172 samples.

Results

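The genes that write, copy, protect and remove DNA methylation were followed in single cells of the mouse inner cell mass (ICM) with and without OCT4. The set held 10 of the 49671 genes counted, taken by symbol: the maintenance genes Dnmt1 and Uhrf1, the de novo genes Dnmt3a, Dnmt3b and Dnmt3l, the oxidases Tet1, Tet2 and Tet3, the glycosylase gene Tdg, and Dppa3. Embryos came from natural matings of Oct4+/- mice with each other, on mixed genetic backgrounds, so every cell of a mutant (MUT) embryo carried the null allele on both chromosomes and heterozygous (HET) controls carried it on a single one. The null allele is zygotic, so it did not keep the Oct4+/- mother from laying down product in the egg. The paper reports no Pou5f1 RNA in E3.5 MUT cells and reads this as loss of the maternal transcripts. It also cites a lack of OCT4 protein at the morula stage. ICMs were freed of trophectoderm (TE) by immunosurgery, with the TE lysate used for genotyping, and each cell was sequenced by Smart-seq2, a full-length method without molecular identifiers. At E3.5, the mid blastocyst, there were 58 WT/HET cells from 7 embryos (5 WT, and HET embryos 15 and 16) and 29 MUT cells from 4. At E4.5, the late blastocyst, the control cells were assigned by the authors to epiblast (EPI, 37 cells) or primitive endoderm (PrE, 29 cells) of the same 6 embryos (WT embryos 5 and 6, and HET embryos 1, 2, 4 and 7), and 19 MUT cells came from 2 embryos.

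Each embryo was summed into 1 profile, at E4.5 into an EPI and a PrE profile, which gave 25 sums of 2736296 to 17453036 counts. Single cells held 363819 to 4644070 counts. The PrE sum of embryo 6 rests on 2 cells. Levels are CPM, library sizes being scaled by the trimmed mean of M values (TMM), and the embryo is the replicate. Pou5f1, the gene that encodes OCT4, was at 4.31 ± 1.40 CPM (SD, n = 4) in E3.5 MUT against 298 ± 98.6 CPM (SD, n = 7) in E3.5 WT/HET, and had no count in the 19 E4.5 MUT cells. Summed markers of EPI were highest in EPI sums (2398 to 3983 CPM) and those of PrE in PrE sums (3229 to 7932 CPM). EPI markers summed to 412 to 1045 CPM in E3.5 MUT against 762 to 1498 in E3.5 WT/HET, with 5 of 8 called lower, and to 518 to 1169.8 CPM in E4.5 MUT, with 4 of 8 called lower than in EPI and Gdf3 at 0. None was called higher than in EPI. Nanog, not called, had the higher mean in E4.5 MUT, 517 CPM against 277 in EPI. Summed TE markers were at 3856 to 5060.5 CPM in E4.5 MUT, against 39.3 to 157 in EPI and 136 to 496 in PrE, and at 629.8 to 1281 CPM in E3.5 MUT against 146 to 819 in E3.5 WT/HET, where the ranges overlapped. Summed PrE markers were at 382 to 608 CPM in E3.5 MUT and 99.7 to 317 in E3.5 WT/HET. Of 7 tested, Dab2 and Col4a1 were called higher and none lower, and Sox17 and Sox7 were at 0 in the MUT cells. In E4.5 MUT the PrE markers summed to 562 to 804 CPM, against 16.7 to 74.3 in EPI. Of 10 tested, 2 were called higher than in EPI and 6 lower than in PrE. The part of these cell type markers in any difference below was not tested. All E3.5 cells were on plate 2 and all E4.5 cells on plate 1, so stage and plate cannot be told apart in any comparison between the stages. Read pairs with more than 1 alignment, which are in no gene count, made up a median of 38.8% and 41.1% of pairs in E3.5 WT/HET and MUT cells and 19.7 to 24.9% in the E4.5 groups.

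DNA methylation in mammals sits mostly on cytosines of CpG dinucleotides. After replication UHRF1 binds CpGs that carry the mark on the old strand alone and brings DNMT1, which copies it to the new strand. DNMT3A and DNMT3B place the mark on unmethylated DNA, and DNMT3L, which has no catalytic activity of its own, stimulates them. TET enzymes oxidise methylcytosine, and TDG cuts out the most oxidised forms for repair. DPPA3, also called Stella, is laid down in the egg, shields the maternal genome from oxidation and can displace UHRF1 from chromatin. Methylation of the mouse genome is low in the blastocyst and is restored by the de novo enzymes around implantation.

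RefSeq promoter windows (GRCm38.p6, 250 bases before to 50 after a transcript start) matched 9 of the 10 genes, in 16 windows, with Dppa3 unmatched. The windows were searched on both strands for the octamer bound by POU factors, ATGCAAAT, and for the E2F-type letters TTTCCCGC, TTTCGCGC, TTTGCCGC and TTTGGCGC. No window of the set held the octamer, which 1.74% of all 32851 promoter windows held. The E2F letters were in 2.26% of all windows, and within the set in a window of each maintenance gene, Uhrf1 and Dnmt1. These sequences are shown because Uhrf1 is the member with the largest log2 fold change between genotypes. The Uhrf1 window with the match lies inside the gene record, which begins at 56303321, and the other Uhrf1 window held none. Of the 3 Dnmt1 windows only 20952574 to 20952873 held matches, 2 of them. It also lies inside its record, which on the minus strand begins at 20959888. The upstream Dnmt1 match lies in an exon of another Dnmt1 transcript, so 30 bases around it are given. The strand of the gene is printed and capitals mark the match, which in Dnmt1 is the reverse complement of the E2F letters.
Uhrf1 (chr17:56304063-56304282, plus strand): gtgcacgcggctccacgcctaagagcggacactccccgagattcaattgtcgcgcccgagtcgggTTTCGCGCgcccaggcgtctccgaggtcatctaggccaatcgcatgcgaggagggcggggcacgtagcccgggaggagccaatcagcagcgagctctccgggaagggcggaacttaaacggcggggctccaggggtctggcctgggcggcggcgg
Dnmt1 (chr9:20952824-20952853, minus strand): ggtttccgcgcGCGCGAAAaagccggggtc
A match is a run of letters and does not show binding.

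The same windows differed in the number of CpGs, the dinucleotides on which the enzymes act. All promoter windows held a median of 7 CpGs, with 1 at the 10th and 31 at the 90th percentile. The Tet2 window held 57, more than 99.8% of all windows, Dnmt3b 30, Tet1 17, and the first of the 3 Dnmt3l windows 6. For these 4 genes 120 bases of the window are given, with CpGs in capitals. They are not the only members that differed with genotype or stage. Dnmt3a, which also did, held 46, 47 and 18 CpGs in its 3 windows.
Tet2 (chr3:133544421-133544540, minus strand): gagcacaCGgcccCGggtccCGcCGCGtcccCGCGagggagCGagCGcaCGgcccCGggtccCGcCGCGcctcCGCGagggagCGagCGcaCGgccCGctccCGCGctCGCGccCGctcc
Dnmt3b (chr2:153649299-153649418, plus strand): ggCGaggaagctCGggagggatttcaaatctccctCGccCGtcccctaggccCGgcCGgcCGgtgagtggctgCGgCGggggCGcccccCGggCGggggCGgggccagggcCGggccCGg
Tet1 (chr10:62887355-62887474, minus strand): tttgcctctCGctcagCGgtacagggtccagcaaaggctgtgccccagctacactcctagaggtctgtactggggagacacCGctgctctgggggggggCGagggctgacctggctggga
Dnmt3l (chr10:78042137-78042256, plus strand): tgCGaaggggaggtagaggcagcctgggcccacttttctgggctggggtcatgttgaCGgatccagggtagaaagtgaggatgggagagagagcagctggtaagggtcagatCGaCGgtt
In these 120 bases Tet2 has 25 CpGs, Dnmt3b 15, and Tet1 and Dnmt3l 4 each. The only Tet1 window, 62887275 to 62887574, lies inside the gene record. On the minus strand that record begins at 62908996, where no window was read.

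The E3.5 comparison asks how the set differs in ICM cells of embryos with no functional Oct4 gene. Uhrf1, Tet1 and Tet2 were lower in MUT embryos, and the other 7 genes did not pass the test. Of the 12075 genes tested with edgeR's quasi-likelihood test, 6.18% passed at an adjusted p under 0.05, 3.2% as higher in MUT and 2.98% as lower. Among the members 3 of 10 were called, all lower.

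Uhrf1 (ENSMUSG00000001228, chromosome 17 from 56303321 to 56323486) ranged from 88.7 to 220.3 CPM with a median of 149 in the 7 WT/HET embryos. In MUT it stood at 0, 12.97, 1.54 and 4.36 CPM in embryos 10, 12, 17 and 19, which are 0, 170, 18 and 31 counts. Every MUT embryo lay below every control embryo, and embryo 10 had no count in its 5 cells. The difference (log2 fold change -4.95, SE 0.80, adjusted p = 0.00483) kept its call in all 11 fits that left out an embryo and in all 7 other alternatives. Uhrf1 was detected, with at least 1 count, in 12 of 29 cells (41.4%, exact Clopper-Pearson 95% interval 23.5 to 61.1%) of MUT and 57 of 58 cells of WT/HET. This interval takes cells as independent, and the share of cells ran from 0 to 60% between the MUT embryos. With every cell thinned to 363819 counts the numbers were 9 of 29 and 57 of 58. Of the 100-base stretches of its transcripts 5.53% also occur in the gene model Gm5648.

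Dnmt1 (ENSMUSG00000004099, chromosome 9 from 20907209 to 20959888), whose protein UHRF1 guides, ranged from 14.3 to 34.4 CPM with a median of 18.1 in WT/HET. It stood at 3.91, 6.33, 19.06 and 8.03 CPM in embryos 10, 12, 17 and 19. The groups overlapped through MUT embryo 17, without a call (log2 fold change -1.16, SE 0.43, adjusted p = 0.136). Without embryo 17 it was called (log2 fold change -1.79, adjusted p = 0.0335). Fewer MUT cells held Dnmt1, 18 of 29 cells (62.1%, exact Clopper-Pearson 95% interval 42.3 to 79.3%) against 57 of 58 cells in WT/HET. Here too the interval takes cells as independent, and the share ran from 50 to 75% between the MUT embryos. Both maintenance genes were seen together in 8 MUT cells, Dnmt1 alone in 10, Uhrf1 alone in 4 and neither in 7, while 56 of 58 control cells held both.

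**Figure D1:**
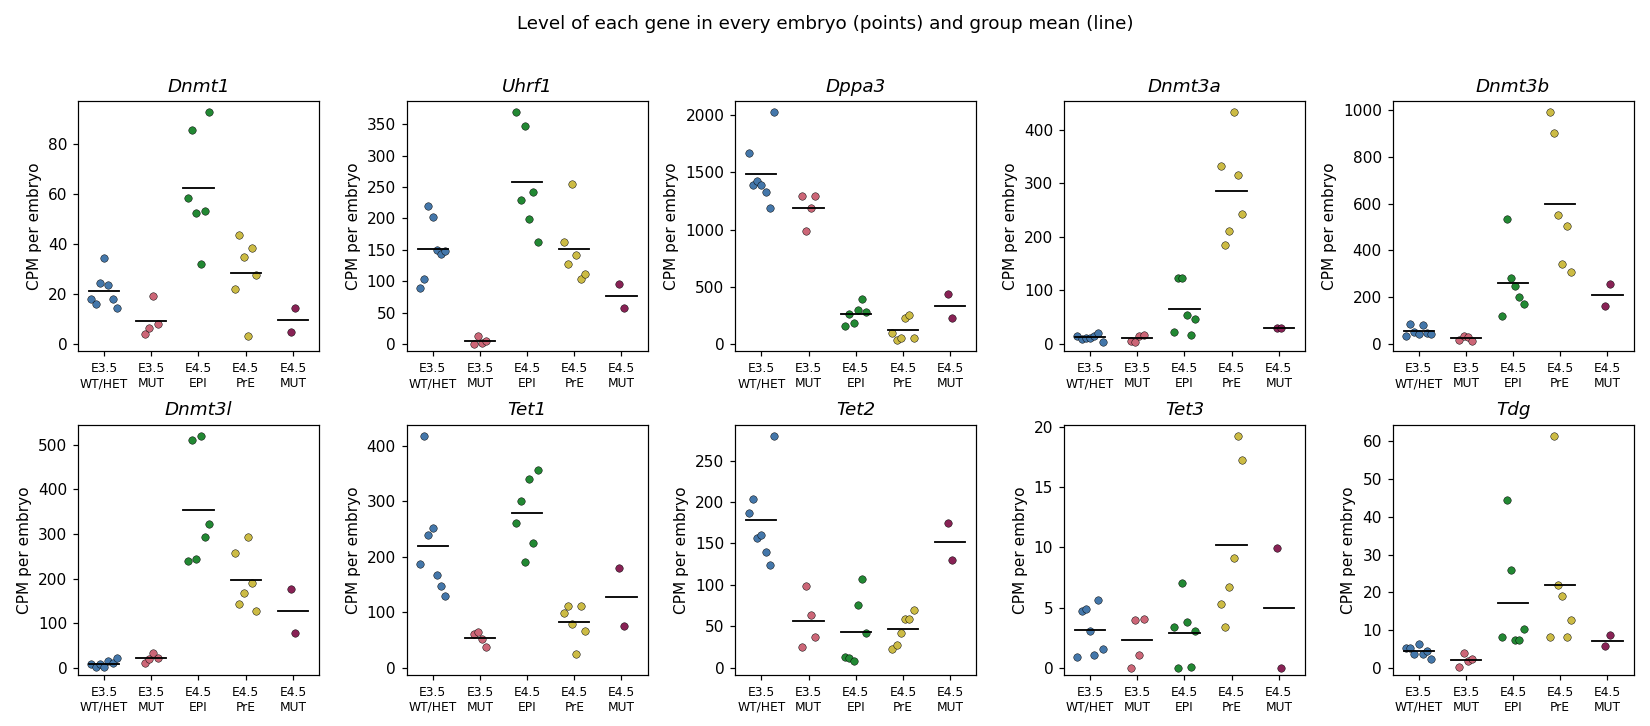
CPM of each of the 10 genes (vertical axis, linear, a separate scale for each gene) in every embryo sum (points) of the 5 groups, with the group mean as a line. Uhrf1, Tet1 and Tet2 of E3.5 MUT lie below all E3.5 WT/HET embryos, Dnmt3b and Dnmt3l of the E4.5 groups lie above all E3.5 embryos, and Dppa3 is high at E3.5 in both genotypes.

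Tet1 (ENSMUSG00000047146, chromosome 10 from 62804570 to 62908996) ranged from 129 to 419 CPM with a median of 188 in WT/HET, with embryo 11 far above the others. It stood at 60.6, 63.9, 51.0 and 37.7 CPM in embryos 10, 12, 17 and 19, all below the lowest control (log2 fold change -2.02, SE 0.32, adjusted p = 0.00415). Tet2 (ENSMUSG00000040943, chromosome 3 from 133463679 to 133545139) ranged from 124 to 279.7 CPM with a median of 159.7 in WT/HET. It stood at 25.6, 99.2, 63.3 and 36.6 CPM in embryos 10, 12, 17 and 19, again without overlap (log2 fold change -1.66, SE 0.35, adjusted p = 0.015). Both calls held in every fit that left out an embryo. Tet2 lost its call only in the joint fit of all 5 groups (adjusted p = 0.202), and Tet1 in none of the alternatives. Nearly all cells of both genotypes still held both genes, since Tet1 was detected in 27 of 29 cells of MUT and 57 of 58 cells of WT/HET, and Tet2 in all 29 and all 58. Tet3 (ENSMUSG00000034832, chromosome 6 from 83362373 to 83459084) was low in both, at 0 to 4.08 and 0.928 to 5.62 CPM, and Tdg (ENSMUSG00000034674, chromosome 10 from 82629828 to 82650799) was at 0.145 to 3.89 and 2.31 to 6.36 CPM. The interval of the difference was wide for Tet3 (-2.55 to 1.66) and for Tdg (-2.60 to 0.48). Tdg shares 22.6% of its 100-base stretches with 4 other gene models, among them the pseudogene Tdg-ps, so its counts are uncertain.

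The de novo genes were low at E3.5. Dnmt3b (ENSMUSG00000027478, chromosome 2 from 153649450 to 153687730) ranged from 33.8 to 85.9 CPM with a median of 47.6 in WT/HET and stood at 18.5, 33.5, 30.0 and 12.8 CPM in embryos 10, 12, 17 and 19. The groups did not overlap, by 33.8 CPM in WT embryo 9 against 33.5 in MUT embryo 12, and the difference missed the threshold (log2 fold change -1.21, SE 0.34, adjusted p = 0.0525). Leaving out embryo 9 or 12 brought it past the threshold (adjusted p = 0.0471 and 0.0447). Dnmt3l (ENSMUSG00000000730, chromosome 10 from 78041947 to 78063622) went the other way, from 1.61 to 20.96 CPM with a median of 8.11 in WT/HET and 11.3, 20.3, 33.3 and 22.9 CPM in embryos 10, 12, 17 and 19, with overlap and no call (log2 fold change 1.25, SE 0.60, adjusted p = 0.249). Dnmt3a (ENSMUSG00000020661, chromosome 12 from 3806007 to 3914443) was at 10.4 ± 6.07 CPM (SD, n = 4) in MUT and 12.6 ± 5.49 CPM (SD, n = 7) in WT/HET, with an interval of the log2 difference from -1.34 to 0.82. Of the Dnmt3b stretches 4.47% also occur in its duplicate Dnmt3c, which had at most 12 counts in any sum.

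Dppa3 (ENSMUSG00000046323, chromosome 6 from 122626410 to 122630272) showed a small difference between genotypes. It ranged from 1191 to 2026 CPM with a median of 1393 in WT/HET and stood at 1290.3, 992, 1189.7 and 1296 CPM in embryos 10, 12, 17 and 19, and was detected in every cell of both groups. It was not called (log2 fold change -0.30, SE 0.16, adjusted p = 0.296), and its 95% interval of -0.64 to 0.04 on the log2 scale does not reach the log2 fold change of Uhrf1, Tet1 or Tet2. With cells weighted equally, the same difference was -0.47 and was called by limma (adjusted p = 0.0357).

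At E4.5 the MUT cells, which were 19 cells of 2 embryos, were compared with EPI and with PrE of the controls, so both comparisons share the MUT sums. Against EPI, Dnmt1 and Uhrf1 were lower, and against PrE, Dnmt3a was lower. For EPI as control, 4.92% of 12953 genes passed, 2.3% as higher in MUT and 2.62% as lower, and 2 of 10 members, both lower. Against PrE 3.81% of 12246 were called, 1.74% higher and 2.07% lower, and 1 of 10 members. Tet1 and Tet2, the called oxidase genes of E3.5, were not called in either comparison.

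Dnmt1 was at 4.66 and 14.3 CPM in embryos 3 and 8 of MUT, below the lowest EPI sum (EPI 31.8 to 92.6 CPM, log2 fold change -2.74, SE 0.67, adjusted p = 0.0474). Uhrf1 was at 95.2 and 58.2 CPM in embryos 3 and 8, also below all EPI sums (EPI 162 to 369 CPM, log2 fold change -1.78, SE 0.39, adjusted p = 0.0316). Both calls are close to the threshold. That of Dnmt1 was kept only without embryo 5 (adjusted p = 0.0499) and ran from 0.0546 without embryo 1 to 0.25 without embryo 3. That of Uhrf1 was lost without embryo 2, 3, 4, 6 or 8 (adjusted p from 0.0517 without embryo 2 to 0.22 without embryo 8). A fit without embryo 3 or 8 leaves a single MUT embryo, which is then assumed to vary like the controls. Neither was called with the 2 WT embryos as the only controls (adjusted p = 0.281 and 0.149), in a fit that called only 48 of 11644 genes. In MUT, 9 of 19 cells held Dnmt1 and 12 of 19 cells held Uhrf1, against 35 of 37 cells and 37 of 37 cells of EPI. The lower levels in MUT went with the TE marker sums given above, and the part of TE-marked cells in them was not tested.

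Dnmt3a was at 29.8 and 29.9 CPM in embryos 3 and 8 of MUT and at 185 to 432 CPM in PrE, a difference that held in every fit with an embryo left out (log2 fold change -3.25, SE 0.41, adjusted p = 0.0026) and missed the threshold with WT embryos only (adjusted p = 0.0583). The fit with WT embryos only called 27 of 10667 genes. Against EPI, where Dnmt3a spread from 17.3 to 123 CPM, it was not called (log2 fold change -1.15, SE 0.79, adjusted p = 0.481). Dnmt3l was at 177 and 77.0 CPM in embryos 3 and 8, below all EPI sums without a call (log2 fold change -1.51, SE 0.45, adjusted p = 0.0825), and Dnmt3b at 162 and 256 CPM in embryos 3 and 8, within the EPI range. Tet2 was at 174 and 130.1 CPM in embryos 3 and 8, above every EPI sum (EPI 8.13 to 107 CPM) and every PrE sum (PrE 22.6 to 69.8 CPM), and neither difference was called (log2 fold change 1.79, SE 0.86, adjusted p = 0.3 against EPI and log2 fold change 1.71, SE 0.45, adjusted p = 0.0695 against PrE). Tet1 was at 181 and 74.4 CPM in embryos 3 and 8, both below all EPI sums, again without a call (log2 fold change -1.16, SE 0.38, adjusted p = 0.117). Tet3 had 170 counts in embryo 3, in 2 cells, and none in embryo 8.

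**Figure D2:**
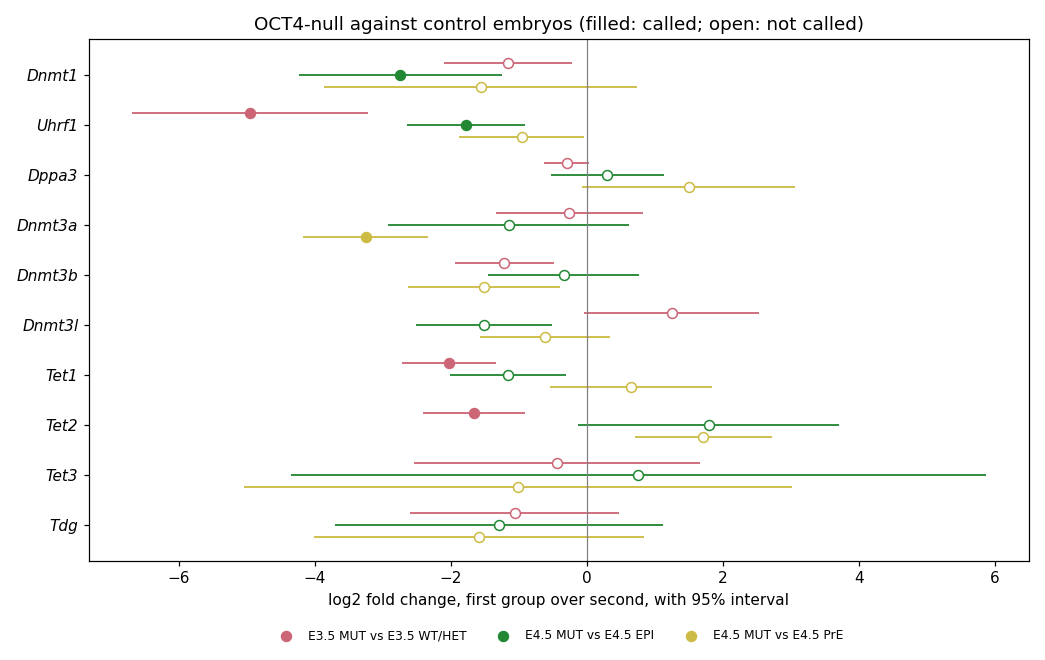
Log2 fold change of each gene with its 95% interval (horizontal axis) for E3.5 MUT against WT/HET, E4.5 MUT against EPI and E4.5 MUT against PrE; filled points passed the test. Uhrf1 at E3.5 lies farthest to the left at -4.95, and Tet2 lies left of 0 at E3.5 and right of it at E4.5.

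The difference between the genotype effects was tested by the interaction term between stage and genotype, with EPI as the E4.5 control, in which a plate difference common to both genotypes cancels. Of 15781 tested genes 5.2% were called, 3.26% with a higher and 1.94% with a lower MUT effect at E4.5. Tet2 (log2 fold change 3.49, SE 0.90, adjusted p = 0.0284) and Uhrf1 (log2 fold change 3.21, SE 0.91, adjusted p = 0.0461) were called, both higher. For Tet2 the effect was -1.66 at E3.5 and 1.79 at E4.5, and for Uhrf1 -4.95 and -1.78. Against WT embryos alone the E4.5 effect of Tet2 was 0.69 (adjusted p = 0.403), its interaction 2.44 (adjusted p = 0.043), and the Uhrf1 interaction was not called (adjusted p = 0.166). The Tet2 call was lost without MUT embryo 3, 8, 10, 17 or 19 (adjusted p = 0.101, 0.0558, 0.0641, 0.051 and 0.0623). Among fits with an embryo left out, that of Uhrf1 was kept only without embryo 1, 4, 10 or 12 and reached 0.175 without embryo 3. The other 8 members were not called. Nearest was Dnmt3l (log2 fold change -2.72, SE 0.89, adjusted p = 0.0791).

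EPI and PrE were assigned from these same transcriptomes, so this contrast describes the classes and its p-values are no independent test. PrE had more Dnmt3a and EPI more Tet1. Of 9762 genes 9.81% were called, 4.61% higher in EPI and 5.2% higher in PrE, and 2 of 10 members. Dnmt3a ranged from 17.3 to 123 CPM with a median of 51.2 in EPI and from 185 to 432 CPM with a median of 279 in PrE, without overlap (log2 fold change -2.14, SE 0.46, adjusted p = 0.00735). Tet1 ranged from 190.5 to 356 CPM with a median of 282 in EPI and from 25.4 to 112 CPM with a median of 88.5 in PrE, without overlap (log2 fold change 1.77, SE 0.31, adjusted p = 0.00184). Both held with any embryo left out, including embryo 6. With the embryo as a block, which compares EPI and PrE within each embryo, 4 members were called: these, and Uhrf1 (log2 fold change 0.79, adjusted p = 0.0229) and Dppa3 (1.48, adjusted p = 0.0477), both higher in EPI. Dnmt3b was at 599 ± 285 CPM (SD, n = 6) in PrE and 259.5 ± 145 CPM (SD, n = 6) in EPI (adjusted p = 0.056), and Dnmt3l at 197 ± 65.7 CPM (SD, n = 6) and 355 ± 128 CPM (SD, n = 6) (adjusted p = 0.0568), both short of the threshold. With the 2 WT embryos alone no member was called by edgeR, in a fit that called only 3 of 10415 genes.

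From E3.5 to E4.5 the control cells differed in most of the set. All 3 Dnmt3 genes and Tdg were higher, and Dppa3 and Tet2 lower, in EPI and in PrE than in E3.5 WT/HET. Between these stages 31.9% of 11142 genes were called for EPI (15.5% higher, 16.4% lower) and 31.7% of 10800 for PrE (14.8% higher, 16.9% lower). Of the members 8 were called for EPI, 6 higher and 2 lower, and 7 for PrE, 4 higher and 3 lower. The 2 comparisons share the E3.5 sums, and plate differs with stage in both.

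Dnmt3l went from 1.61 to 20.96 CPM at E3.5 to 239 to 519.6 in EPI (log2 fold change 5.27, SE 0.54, adjusted p = 4.24e-06) and 127 to 293 in PrE (log2 fold change 4.39, SE 0.52, adjusted p = 1.57e-05). It was detected in 31 of 58 cells at E3.5, in 36 of 37 cells of EPI and in all PrE cells. Dnmt3a was higher in PrE (log2 fold change 4.497, SE 0.35, adjusted p = 2.6e-07) and, with overlap of the groups, in EPI (log2 fold change 2.39, SE 0.50, adjusted p = 0.00186). Dnmt3b was higher in EPI (log2 fold change 2.25, SE 0.33, adjusted p = 9.56e-05) and PrE (log2 fold change 3.42, SE 0.32, adjusted p = 1.48e-06) without overlap. These values put the E4.5 sums of Dnmt3b and Dnmt3l above every E3.5 control. Tdg was higher by 1.998 in EPI and 2.30 in PrE on the log2 scale (adjusted p = 0.0126 and 0.00473), and its EPI call was lost without embryo 2 (adjusted p = 0.0507), which had the highest Tdg level. Dnmt1 and Uhrf1 were higher in EPI (log2 fold change 1.57, SE 0.29, adjusted p = 0.00072, and log2 fold change 0.79, SE 0.24, adjusted p = 0.0178), with overlap in both. In PrE Dnmt1 had a log2 fold change of 0.40 (interval -0.58 to 1.39) and Uhrf1 of -0.01 (interval -0.54 to 0.51), and neither was called. With WT embryos as the only controls the EPI calls of Dnmt1, Dnmt3a, Uhrf1 and Tdg were lost (adjusted p = 0.12, 0.0591, 0.29 and 0.466), and so were the PrE calls of Tet1 and Tdg (adjusted p = 0.0679 and 0.123).

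Dppa3 fell to 156 to 397 CPM in EPI (log2 fold change -2.47, SE 0.21, adjusted p = 9.65e-07) and 34.1 to 254 in PrE (log2 fold change -3.66, SE 0.46, adjusted p = 2.55e-05), far below the 1191 to 2026 CPM of E3.5. Tet2 fell in EPI (log2 fold change -2.02, SE 0.55, adjusted p = 0.0106) and in PrE (log2 fold change -1.94, SE 0.29, adjusted p = 0.000105). In EPI Tet2 spread widely. It was at 76.3 and 107 CPM in WT embryos 5 and 6 and at 12.7, 11.5, 8.13 and 41.9 in HET embryos 1, 2, 4 and 7, so no WT embryo lay in the HET range, a split that was seen in the values and not tested. In the PrE sums of the same embryos WT (59.1 and 59.3 CPM) lay within the HET range, and at E3.5 the HET embryos 15 and 16 had 139.8 and 124 CPM, the lowest of the 7. With WT embryos only, the EPI difference was -1.10 and still called (adjusted p = 0.026). Tet1 fell in PrE (log2 fold change -1.43, SE 0.34, adjusted p = 0.00443) and not in EPI (log2 fold change 0.37, SE 0.25, adjusted p = 0.29). Tet3 stayed at or under 19.2 CPM in every sum.

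**Figure D3:**
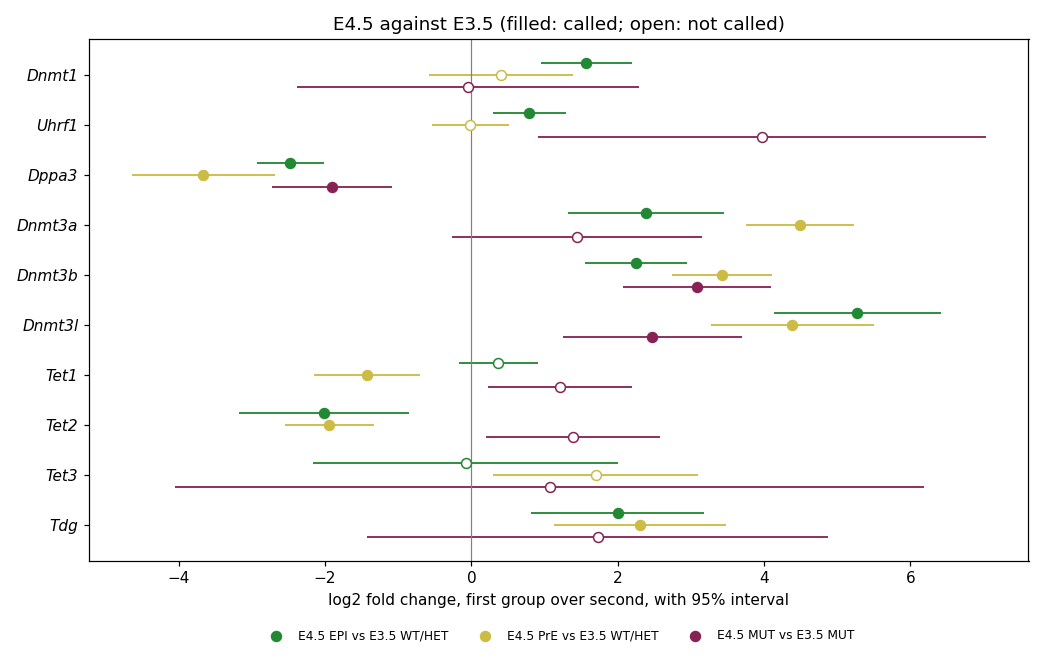
Log2 fold change with its 95% interval (horizontal axis) of each gene between E4.5 and E3.5, for EPI and PrE against E3.5 WT/HET and for E4.5 MUT against E3.5 MUT; filled points passed the test. Dnmt3b and Dnmt3l lie right of 0 and Dppa3 left of 0, all filled, in the 3 comparisons.

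Without OCT4 the stages were compared with 4 and 2 embryos. Of 12714 genes 6.76% were called, 3.08% higher and 3.69% lower at E4.5, and 3 of 10 members: Dnmt3b (log2 fold change 3.08, SE 0.44, adjusted p = 0.0144) and Dnmt3l (log2 fold change 2.47, SE 0.53, adjusted p = 0.0393) higher, and Dppa3 (log2 fold change -1.91, SE 0.35, adjusted p = 0.0277) lower. The Dnmt3b call was lost without MUT embryo 3 or 8 (adjusted p = 0.0621 and 0.0637), the Dnmt3l call without any of the 6 (adjusted p from 0.0565 without embryo 8 to 0.2 without embryo 3), and the Dppa3 call without 3, 8, 17 or 19 (up to 0.0963 without embryo 8). Uhrf1 had 95.2 and 58.2 CPM in embryos 3 and 8 at E4.5, above every E3.5 MUT embryo, with a wide interval and no call (log2 fold change 3.97, SE 1.32, adjusted p = 0.103).

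Levels of different genes were set side by side as FPKM, which divides by exon length. The summed Dnmt3 level was 14.8 ± 4.25 FPKM in E3.5 WT/HET and 12.6 ± 4.27 in E3.5 MUT, and 173 ± 66.6 in EPI, 200.3 ± 61.7 in PrE and 85.3 ± 10.7 in E4.5 MUT (SD over embryos). Its makeup differed as well. Dnmt3b gave 73.4 ± 13.3% of it in E3.5 WT/HET and 37.5 ± 12.2% in E3.5 MUT, where Dnmt3l gave 57.4 ± 9.73% against 21.01 ± 13.6% in the controls, and these shares did not overlap between the genotypes. In EPI Dnmt3l gave 69.3 ± 8.70% and in PrE Dnmt3b 56.9 ± 13.5%. Dnmt3a was the smallest part in the group means, at most 9.17 ± 3.53% in PrE. The summed Tet level was 25.02 ± 7.17 FPKM in E3.5 WT/HET and 6.92 ± 2.42 in E3.5 MUT, and Tet1 gave 55.8 ± 11.3% and 52.3 ± 13.8% of it. Tet1 made up 87.7 ± 10.2% in EPI, 59.6 ± 19.8% in PrE and 45.1 ± 9.36% in E4.5 MUT. The Dppa3 level was 1669.6 ± 309 FPKM at E3.5 in controls, above every other member. These shares are a description without a test.

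**Figure D4:**
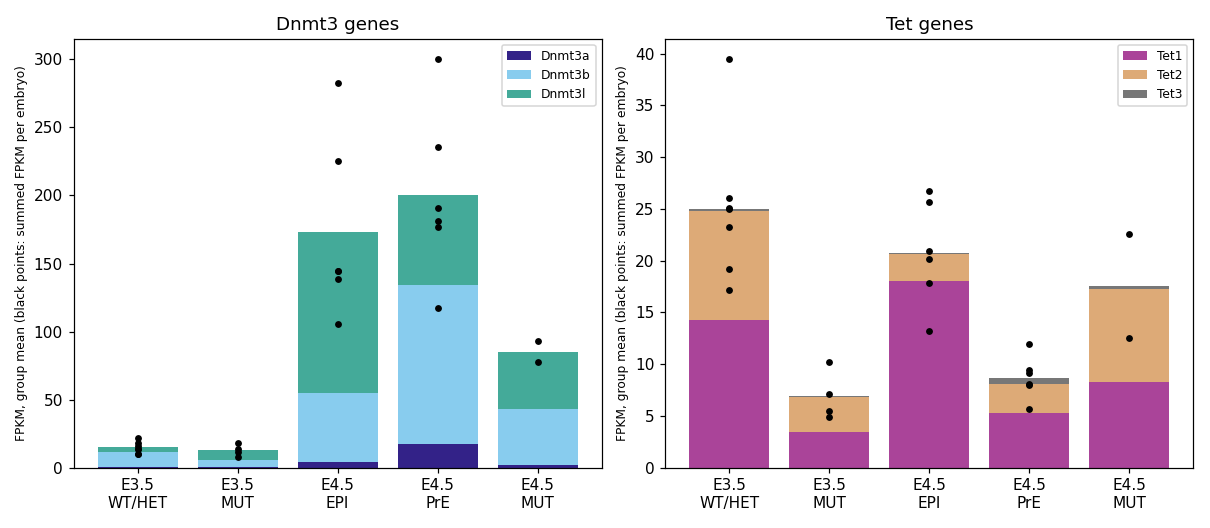
Mean FPKM per group of the 3 Dnmt3 genes (left) and the 3 Tet genes (right) as stacked bars from 0, with the summed FPKM of each embryo as black points. The Dnmt3 sum is high in the E4.5 groups with Dnmt3l the largest part in EPI and Dnmt3b in PrE, and the Tet sum is low in E3.5 MUT and in PrE.

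In single cells, the number of members detected had a median of 8 of 10 in E3.5 WT/HET, 7 in E3.5 MUT, 8 in EPI, 9 in PrE and 6 in E4.5 MUT. All 10 were held by 8 of 58 E3.5 WT/HET, 4 of 37 EPI and 6 of 29 PrE cells. None of the 29 E3.5 MUT and 19 E4.5 MUT cells held all 10. Tet3, called in no comparison, was in only 5 of 29 E3.5 MUT and 2 of 19 E4.5 MUT cells. It was in 22 of 58 E3.5 WT/HET, 6 of 37 EPI and 11 of 29 PrE cells. Few MUT cells could therefore hold all 10, and the absence does not show a loss of the whole set. Dnmt3a and Dnmt3l were seen together in 27 of 58 cells of E3.5 WT/HET, 16 of 29 of E3.5 MUT, 30 of 37 of EPI and all 29 of PrE, and in 9 of 19 of E4.5 MUT. Tet2 was detected in 22 of 37 cells of EPI and 22 of 29 cells of PrE, after every cell at E3.5. In E4.5 MUT 14 of 19 cells held Tet2 at a summed level above every EPI sum. The intervals given for shares take the cells of a group as independent, which cells of an embryo are not. They do not cover the spread between embryos. PCR reads are not independent molecules.

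**Figure D5:**
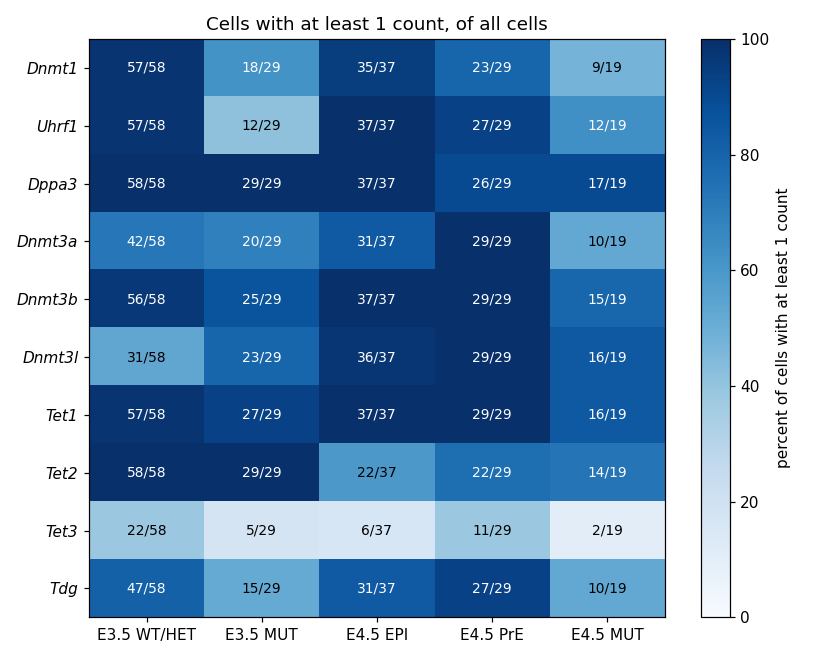
Number of cells with at least 1 count of each gene over all cells of the group, with the percent as shade (scale 0 to 100). Uhrf1 is found in 12 of 29 E3.5 MUT cells and 57 of 58 controls, and Tet3 is in the minority of cells in every group.

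For 9 members the genes with the most similar log2 CPM over the 25 sums were taken from the 6005 with a mean of at least 20 CPM. The sums share stages, lineages and plates, so these correlations describe the pattern and carry no test. Uhrf1 was most like Ezr (0.954), Upp1 (0.948) and Lap3 (0.901), given as Pearson's r. Dnmt1 was most like Fkbp5 (0.875), Ddx39b (0.804) and Smarcb1 (0.786). For Dnmt3a the nearest were Flrt3 (0.906), Serpinh1 (0.894) and Mgst3 (0.892), for Dnmt3b Egfl7 (0.933), Sparc (0.930) and Slc9a3r1 (0.918) and for Dnmt3l Rps19 (0.919), Samm50 (0.910) and Rpl4 (0.906). Tet1 was nearest to Tdgf1 (0.854), Zfp42 (0.843) and Zfp57 (0.838), and Tet2 to Fem1c (0.767), Bag1 (0.757) and Tes (0.747). Tdg was nearest to Mdh1 (0.899), Hmgn1 (0.871) and Gm10282 (0.867), and Dppa3 to Eif2s2 (0.948), Alg13 (0.947) and Sugt1 (0.928).

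Other genes of the pathway were read from 10 lists. The lists are described by the number of called genes, and by their median log2 fold change beside that of all genes tested, which was -0.02 in E3.5 MUT and -0.03 in E4.5 MUT against EPI. Of all genes tested, 6.18% were called in E3.5 MUT, and 4.92% and 3.81% in E4.5 MUT against EPI and PrE. For EPI against PrE the share was 9.81%. From E3.5 to E4.5 it was 31.9% in EPI, 31.7% in PrE and 6.76% in MUT. List counts near these shares are not particular to the list. List genes with no count in a group, at most 3 in a list, did not move these medians when set to a bound of 3 counts. Partners of maintenance methylation, genes that act with UHRF1 and DNMT1 at the replication fork, came first. Among the partner genes, E3.5 MUT had 2 lower of 8 (median -0.23), and E4.5 MUT had 2 lower of 9 (median -0.93) against EPI and no call among 9 against PrE. For the partner genes there was, in EPI against PrE, 4 higher of 9, and from E3.5 to E4.5, 4 higher and 1 lower of 9 in EPI, 1 higher and 3 lower of 9 in PrE and 1 higher of 8 in MUT. Lig1, which joins the new DNA strand, was lower in E3.5 MUT (log2 fold change -1.09, adjusted p = 0.0114), as was the deacetylase gene Hdac2 (log2 fold change -0.98, adjusted p = 0.00694). Against EPI, E4.5 MUT had less Hdac1 (log2 fold change -1.95, adjusted p = 0.00158) and less Pcna (log2 fold change -1.54, adjusted p = 0.0124), the sliding clamp of replication. Pcna and Hdac1 also had a called interaction of stage and OCT4, both lower. EPI had more Usp7 than PrE (log2 fold change 1.37, adjusted p = 0.000849), a deubiquitinase that binds UHRF1 and DNMT1, and more Hells (log2 fold change 1.41, adjusted p = 0.00194), a chromatin remodeller.

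Since Uhrf1 and Dnmt1 are used in S phase, S phase genes were read beside them. Among S phase genes, E3.5 MUT had 2 higher and 1 lower of 24 (median -0.18), and E4.5 MUT had 4 lower of 24 (median -0.72) against EPI and 1 lower of 24 against PrE. For S phase genes there was, in EPI against PrE, 5 higher of 24, and from E3.5 to E4.5, 17 higher of 24 in EPI, 6 higher and 1 lower of 24 in PrE and 2 higher and 2 lower of 24 in MUT. Their summed level was 3357 to 4495 CPM in E3.5 MUT and 2893 to 4317 in E3.5 WT/HET, and the ranges overlapped. Rrm2 (log2 fold change 1.28, adjusted p = 0.00865) and Pola1 (log2 fold change 1.48, adjusted p = 0.0168) were higher and Mcm6 (log2 fold change -0.96, adjusted p = 0.0123) lower in E3.5 MUT. Against EPI, where Uhrf1 and Dnmt1 were lower in MUT, the S phase sum was 3462 to 3653 CPM in E4.5 MUT and 5499 to 6837 in EPI, without overlap. The 4 called genes, among them Ccne1 (log2 fold change -3.05, adjusted p = 0.0254) and Mcm3 (log2 fold change -1.55, adjusted p = 0.0115), were lower. The part of the S phase level in the Uhrf1 and Dnmt1 differences was not tested at either stage.

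Readers of methylated CpG came next. Among methyl-CpG reader genes, E3.5 MUT had 1 lower of 7 (median -0.86), and E4.5 MUT had 1 lower of 7 (median 0.97) against EPI and no call among 8 against PrE. For methyl-CpG reader genes there was, in EPI against PrE, no call among 6, and from E3.5 to E4.5, 1 higher of 6 in EPI, 2 higher of 6 in PrE and no call among 6 in MUT. Mbd3, of the NuRD complex, was lower in MUT at both stages (log2 fold change -1.19, adjusted p = 0.0485 at E3.5 and log2 fold change -1.84, adjusted p = 0.0247 at E4.5 against EPI) and higher at E4.5 than E3.5 in EPI (log2 fold change 2.58, adjusted p = 8.07e-07) and PrE (log2 fold change 2.19, adjusted p = 1.41e-06). Uhrf2, the paralogue of Uhrf1, was higher in PrE than at E3.5 (log2 fold change 1.68, adjusted p = 0.0276). The list of base excision repair and deaminase genes, which act after TET and TDG, followed. Among these repair genes, E3.5 MUT had 1 higher and 1 lower of 15 (median -0.09), and E4.5 MUT had 1 lower of 17 (median -0.35) against EPI and no call among 16 against PrE. For these repair genes there was, in EPI against PrE, 2 higher of 14, and from E3.5 to E4.5, 5 higher and 1 lower of 14 in EPI, 1 higher of 13 in PrE and no call among 16 in MUT. Gadd45b was higher (log2 fold change 2.40, adjusted p = 0.0278) in E3.5 MUT, and Gadd45a, at 0.346 against 8.33 CPM in MUT and WT/HET, lower (adjusted p = 0.032). Parp1, which binds DNA breaks, was lower in E4.5 MUT than in EPI (log2 fold change -1.57, adjusted p = 0.00355).

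TET enzymes need 2-oxoglutarate. The list of their partners and of the isocitrate dehydrogenase genes that supply it was read next. Among TET partner and supply genes, E3.5 MUT had no call among 8 (median 0.04), and E4.5 MUT had no call among 9 (median 0.11) against EPI and 1 lower of 9 against PrE. For TET partner and supply genes there was, in EPI against PrE, 1 higher of 9, and from E3.5 to E4.5, 3 higher and 1 lower of 9 in EPI, 2 higher and 2 lower of 9 in PrE and 1 higher and 1 lower of 9 in MUT. Idh2 was higher at E4.5 in EPI (log2 fold change 1.10, adjusted p = 0.00739) and PrE (log2 fold change 1.02, adjusted p = 0.00405). Idh1 was lower in E4.5 MUT than in PrE (log2 fold change -1.74, adjusted p = 0.0412). The methionine and folate cycles supply the methyl donor. Among methyl donor genes, E3.5 MUT had 1 higher and 2 lower of 14 (median 0.09), and E4.5 MUT had 1 lower of 15 (median -0.45) against EPI and 1 lower of 15 against PrE. For methyl donor genes there was, in EPI against PrE, 1 lower of 13, and from E3.5 to E4.5, 4 higher and 2 lower of 14 in EPI, 3 higher and 1 lower of 14 in PrE and no call among 14 in MUT. In E3.5 MUT Ahcy, which clears the inhibitor left by methyl transfer, was lower (log2 fold change -2.44, adjusted p = 0.00549), Mat2a, which makes the donor, was higher (log2 fold change 0.75, adjusted p = 0.0114), and Mthfd1 was lower (log2 fold change -0.78, adjusted p = 0.0272). Bhmt, which remakes methionine from betaine, was at 6.50 against 1974 CPM in EPI and E3.5 WT/HET (log2 fold change -8.28, adjusted p = 2.13e-05). Shmt2 was higher in EPI (log2 fold change 1.95, adjusted p = 7.91e-05).

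Imprint protection and H3K9 methylation genes guard methylation through the blastocyst. Among imprint protection genes, E3.5 MUT had 1 lower of 14 (median -0.07), and E4.5 MUT had 2 lower of 14 (median -0.54) against EPI and no call among 14 against PrE. For imprint protection genes there was, in EPI against PrE, 3 higher of 14, and from E3.5 to E4.5, 7 higher and 2 lower of 14 in EPI, 2 higher and 2 lower of 14 in PrE and no call among 14 in MUT. Zfp57, a zinc finger gene whose protein keeps imprints methylated, was at 1.59 against 37.5 CPM in E3.5 MUT and WT/HET (log2 fold change -4.53, adjusted p = 0.00337) and at 10.4 against 112 CPM in E4.5 MUT and EPI (log2 fold change -3.45, adjusted p = 0.0132). Trim28, its corepressor, was lower in E4.5 MUT than EPI (log2 fold change -1.03, adjusted p = 0.0176) and higher in EPI than PrE (log2 fold change 1.76, adjusted p = 0.00057). Ehmt2 was higher at E4.5 in EPI (log2 fold change 2.70, adjusted p = 1.84e-05) and PrE (log2 fold change 1.56, adjusted p = 0.0104). Zfp57 stood also among the 3 genes most like Tet1.

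Imprinted genes and germline genes are read-outs of methylation in other settings, and methylation itself was not measured here. Among imprinted genes, E3.5 MUT had 1 higher of 14 (median -0.39), and E4.5 MUT had 3 higher of 22 (median 1.17) against EPI and 1 higher of 19 against PrE. For imprinted genes there was, in EPI against PrE, 1 higher and 1 lower of 15, and from E3.5 to E4.5, 5 higher and 3 lower of 15 in EPI, 4 higher and 5 lower of 15 in PrE and 4 higher of 20 in MUT. Igf2r was higher in E3.5 MUT (log2 fold change 1.42, adjusted p = 0.0265). In E4.5 MUT Igf2 and H19, which share an imprinted domain, were at 91.3 and 62.4 CPM, higher than in EPI (adjusted p = 0.000331 and 0.000626). Their EPI values, 0.0133 and 0.00998 CPM, were below the 0.0487 CPM that 3 counts over the EPI cells would give. They mark near absence and not a level. Slc38a4 was higher in E4.5 MUT than in EPI (log2 fold change 3.48, adjusted p = 0.000458) and PrE (log2 fold change 3.55, adjusted p = 0.00381). All 3 are also expressed in extraembryonic tissue, and the TE marker sums were high in the same embryos, whose part in these values was not tested. Among germline genes with methylated promoters, E3.5 MUT had no call among 11 (median -0.25), and E4.5 MUT had no call among 11 (median -0.18) against EPI and no call among 13 against PrE. For germline genes with methylated promoters there was, in EPI against PrE, no call among 9, and from E3.5 to E4.5, 1 higher and 4 lower of 10 in EPI, 2 lower of 11 in PrE and 3 lower of 12 in MUT. Tex19.1 was lower at E4.5 in EPI (log2 fold change -1.52, adjusted p = 0.000235), in PrE (log2 fold change -2.28, adjusted p = 8.15e-06) and in MUT (log2 fold change -2.19, adjusted p = 0.0317), as was Sycp3 (log2 fold change -4.08, adjusted p = 0.000392 in EPI).

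Regulators of Dnmt3 and Tet genes in naive pluripotent cells formed the last list. Among regulators tested, E3.5 MUT had 2 lower of 11 (median -0.41), and E4.5 MUT had 2 lower of 13 (median -1.04) against EPI and 1 higher and 1 lower of 11 against PrE. For regulators tested there was, in EPI against PrE, 7 higher of 11, and from E3.5 to E4.5, 4 higher and 3 lower of 12 in EPI, 2 higher and 8 lower of 12 in PrE and no call among 12 in MUT. In E3.5 MUT Zfp42 (log2 fold change -0.85, adjusted p = 0.00549) and Tfcp2l1 (log2 fold change -0.92, adjusted p = 0.0121) were lower. Prdm14, which represses Dnmt3 genes in naive cells, was at 28.5 against 0.0170 CPM in EPI and PrE (adjusted p = 6.79e-05). The PrE value was below the 0.0602 CPM that 3 counts over the PrE cells would give. Nanog, a naive pluripotency factor, was at 517 against 1.08 CPM in E4.5 MUT and PrE (adjusted p = 0.00877), and Esrrb was lower in E4.5 MUT than in EPI (log2 fold change -2.60, adjusted p = 0.0479). Over the interaction of stage and OCT4, the 10 lists gave 4 calls with a higher and 9 with a lower MUT effect at E4.5, where Pcna is counted in 2 lists. Of the lower calls, 5 were among the 24 S phase genes. Over all genes 5.2% were called, 3.26% higher and 1.94% lower.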

How the data were processed

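Smart-seq2 libraries of single ICM cells were sequenced in 125-base pairs. Per the study's methods, the authors aligned the pairs to GRCm38 with STAR 2.5.2a, removed inadequate cells, and counted pairs per Ensembl 87 gene with htseq-count. The deposited values are raw read counts per gene and cell, with no normalization. Rows for pairs that fell outside genes (4.72%), that were ambiguous between genes (8.65%) or that had several alignments (32.3%) were left out. Counts were summed per embryo, with embryo numbers and EPI or PrE classes matched by sample title to the study's own sample list. Levels between genes are FPKM over the union of exons of the GENCODE M21 records.

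Comparisons used edgeR 4.0.16 in R 4.3.3 (glmQLFit and glmQLFTest, TMM, filterByExpr) on all genes, with Benjamini-Hochberg adjusted p under 0.05 as the call. The 10 genes and the lists were chosen with earlier results of these data known. All 10 members were named. From each list at most the 3 called genes with the smallest adjusted p were named in a comparison, and for each member the 3 genes most like it, except that 1 list gene and the genes most like Tet3 are not reported here. Each result was recomputed with limma 3.58.1 on cells weighted equally, DESeq2 1.42.0, edgeR on DESeq2 size factors, no low-count filter, shallow cells left out, all groups in one fit, WT embryos as the only controls, each embryo left out, and the embryo as a block. EPI and PrE sums of an embryo are the same animal. The main fit of EPI against PrE had no embryo term, and the pairing entered only in the alternative with the embryo as a block. Correlations of the deviations of the paired sums from their group means were 0.00903 to 0.0655. Exons of Tdg, Dnmt3l, Dnmt3a and Tet2 overlap Glt8d2, Aire, Dnmt3aos and Gm42567 over 6.83, 2.24, 0.799 and 0.255% of their bases, and the strand setting of the counts is not given in the sources used here. The scripts were tested on simulated data. The deposited counts carry no molecular identifiers.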

Additional observations from a re-analysis of the deposited data

Results flagged for a closer look

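Over 40 groups of a member and a sample group, 2 held a sample that stood apart from the rest, against about 1 in 20 by chance. Tet1 in E3.5 WT/HET embryo 11 was at 419 CPM, with a group median of 188. Tdg in the PrE sum of embryo 2 was at 61.4 CPM, with a group median of 15.9, and its EPI sum was the highest of EPI as well. The genotype effect differed between the stages for Tet2 (interaction 3.49) and for Uhrf1 (interaction 3.21) on the log2 scale, and both calls depended on single embryos as described.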

How the results depend on the processing

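Of the 28 called values among 80, 20 were kept in every fit without an embryo and 11 in every alternative run. Numbers of called members with each embryo left out in turn were 3 to 4 for E3.5 MUT, 0 to 2 for E4.5 MUT against EPI, 1 to 1 for E4.5 MUT against PrE, 2 to 3 for EPI against PrE, 7 to 9 for EPI against E3.5, 7 to 8 for PrE against E3.5, 0 to 2 for E4.5 against E3.5 MUT and 0 to 2 for the interaction. Numbers of called members that differed by over 1.5 times were 5 for E3.5 MUT, 4 for E4.5 MUT against EPI, 3 for E4.5 MUT against PrE, 5 for EPI against PrE and 6 for E4.5 against E3.5 MUT with DESeq2, 1 for E4.5 MUT against EPI with its size factors in edgeR, 6 for E3.5 MUT, 4 for E4.5 MUT against EPI, 4 for E4.5 MUT against PrE and 4 for EPI against PrE with limma, 1 for E4.5 MUT against EPI and 4 for EPI against PrE with all groups in one fit, 1 for E4.5 MUT against EPI and 1 for the interaction without a filter, 1 for E4.5 MUT against EPI, 2 for E4.5 MUT against PrE and 1 for the interaction without shallow cells and 0 for E4.5 MUT against EPI, 0 for E4.5 MUT against PrE, 0 for EPI against PrE, 4 for EPI against E3.5 and 1 for the interaction with WT embryos as the only controls. DESeq2 and limma also called more of all genes than the main fit in the comparisons listed for them. For E3.5 MUT they called 1607 and 1353 of 12075 genes, where the main fit called 6.18%. For E4.5 MUT against EPI they called 1691 and 1479 of 12953, where the main fit called 4.92%. Their higher member counts thus came with more calls among all genes. With WT embryos as the only controls, fewer of all genes were called in the listed comparisons. The replicate block gave 4 called members for EPI against PrE, Uhrf1 and Dppa3 being added, and changed no other call. limma with cells weighted equally put the median of all genes at -0.23 for E3.5 MUT, -0.20 for E4.5 MUT against EPI, -0.24 for E4.5 MUT against PrE, -0.63 for EPI and -0.62 for PrE against E3.5 and -0.44 for the MUT stages. The sign turned, among values not called in the main fit, for Dnmt3a in E3.5 MUT (0.0320) with WT embryos only. With limma it turned for Tet3 (-0.13) and Dppa3 (-0.56, and -0.11 with WT only) in MUT against EPI, Tet1 in MUT against PrE (-0.39), Dnmt1 in PrE against E3.5 (-0.24, and -0.0769 with WT only), Dnmt3a (-0.23) and Tet3 (-0.0340) between MUT stages, and Dnmt3b (-0.23) and Dppa3 (-0.0935) in the interaction. Tet2 in EPI against PrE turned to 0.0313 without shallow cells and 0.66 with WT only, Tdg in the interaction to 0.96 with WT only, Dnmt1 between MUT stages to 0.0706 with DESeq2, 0.0720 with its size factors and 0.0218 in one fit of all groups, and Uhrf1 in PrE against E3.5 to 0.00445 with DESeq2 and 0.00424 with its size factors. With an embryo left out, log2 fold changes spanned 0 for Tet3 (-8.04 to 1.76) and Dppa3 (-0.24 to 0.71) in MUT against EPI, Tet1 in MUT against PrE (-0.0777 to 1.16), Tet2 in EPI against PrE (-0.56 to 0.0568), Tet3 in EPI (-0.59 to 0.17) and Uhrf1 in PrE (-0.19 to 0.12) against E3.5, Dnmt1 (-1.05 to 0.56) and Tet3 (-7.58 to 2.07) between MUT stages, and Tet3 (-7.58 to 2.23) and Tdg (-0.65 to 0.30) in the interaction. The cause was not tested. With 5 counts as the limit of detection, Uhrf1 was found in 10 of 29 E3.5 MUT and 57 of 58 WT/HET cells. Single-cell depth limits shares of low genes such as Tet3.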
